A study of Arabidopsis thaliana with 8 samples.

Results

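Carpel transcripts of the overexpression line 35S:NGA were compared with those of wild type (WT) in Arabidopsis thaliana. The members were the libraries titled 35S:NGA and WT, 5 of the 8 libraries of the series, with 3 libraries of 35S:NGA and 2 of WT. Both groups were of the ecotype Columbia and were grown on soil in long days. Carpels of floral stages 8 to 13 were picked by hand from 15 young inflorescences, and total RNA was sequenced on an Illumina HiSeq instrument. The genotype label of 35S:NGA says only that NGA is overexpressed. It does not name the NGATHA gene that was driven, the number of independent lines or the age of the plants. The 35S promoter of a plant virus is active in most plant tissues, so a transgene under it is not limited to the cells that normally transcribe the gene. The remaining 3 libraries, labelled nga 1/2/3/4, share the WT libraries as their control. They are given here as values only, apart from an alternative fit of all 8 libraries.

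NGATHA genes encode transcription factors with a B3 DNA-binding domain. NGA1, NGA2, NGA3 and NGA4 act together in the apical part of the pistil, where style and stigma form, and in the growth of leaves and petals. Loss of their joint function is known for a missing style and stigma, and strong overexpression for narrow organs. The NGATHA-like genes are close relatives with a B3 domain.

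Levels were RPKM, reads per kilobase of gene scaled to the mapped reads, so that levels of different genes can be set side by side. Differences are given as 35S:NGA minus WT on the log2(RPKM + 1) scale with their standard error (SE), and this scale understates the change of genes at low RPKM. Each comparison had n = 3 for 35S:NGA and n = 2 for WT. A gene was called when its p from limma, adjusted over all genes tested with the Benjamini-Hochberg method, was under 0.05, and "rose" and "fell" are used only of called genes. Mapped reads, recovered from the spacing of low values, came to 23.1, 32.5 and 31.1 M in the 35S:NGA libraries and to 36.2 and 34.2 M in the WT libraries. The file headers place 35S:NGA 1 and 2 in sequencing lane 7, 35S:NGA 3 in lane 8 and both WT libraries in lane 6, so the effects of lane and genotype cannot be told apart. The titles number the replicates without naming separate plants, and the p-values then measure only the spread between these libraries, which may be technical. In whole carpels, fewer cells of a type and less RNA per cell cannot be told apart. Carpel genes were present in both groups. The MADS-box gene AG had 55.1, 52.9 and 42.0 RPKM in 35S:NGA, against 38.7 and 37.4 RPKM in WT, and the ovule gene STK had 110, 123 and 97.7 RPKM in 35S:NGA, against 107 and 108 RPKM in WT.

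Of 17517 genes tested, 193 rose and 151 fell, 344 or 1.96% in all. The risen genes made 1.10% of the genes tested and the fallen genes 0.862%. Changes of at least 2-fold were found in 147 of the risen and 86 of the fallen genes. An unadjusted p under 0.05 was found for 2392 genes with higher and 2005 genes with lower levels in 35S:NGA. The median difference over all genes was 0.01, and the median absolute difference between group means was 0.23. Between single libraries it was 0.17 to 0.23 for pairs of 35S:NGA and 0.13 for WT. Means of several libraries vary less than single libraries, so these values are not like for like. Every 35S:NGA library lay above both WT libraries for 23.2% of the genes tested and below both for 23.5%. Groups without overlap were thus common, and this was a condition for naming the genes of largest change. Where it is given for called genes below, it is a description and no further support. The calls depended on single libraries. The count was 1 risen gene and no fallen gene without WT 1, and the same without WT 2, and limma then found unadjusted p under 0.05 for 2317 and 1889 genes. No gene was called without 35S:NGA 1, with 3539 genes at an unadjusted p under 0.05. There were 157 risen and 62 fallen genes without 35S:NGA 2, and 256 risen and 204 fallen genes without 35S:NGA 3. Of the 344 genes, 67 were called in none of these 5 fits, 173 in 1, 103 in 2 and 1 in 4, while all 344 kept their direction in each. The gene called in 4 of them, AT2G05540, averaged 73.0 RPKM in 35S:NGA, against 2.09 RPKM in WT; it was picked out after its values were seen. Risen genes made 56.1% of the calls with the values as deposited, 44.1% after quantile normalization and 49% with library medians set equal, which moved the median of all genes to -0.04 and -0.03.

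NGA3 was the single NGATHA gene that rose. It had 102, 120 and 166 RPKM in the 35S:NGA libraries, against 5.47 and 4.81 RPKM in the WT libraries, a difference of 4.38 ± 0.21 (SE, adjusted p = 0.0142), the lowest adjusted p of all genes. The groups were far apart, and the 3 nga libraries lay below both with 2.56, 2.65 and 2.97 RPKM. The values are per locus, so transcripts of a transgene and of the resident NGA3 on chromosome 1 (11649 to 13714, minus strand, TAIR10.1) cannot be told apart. NGA1 had 15.6, 21.4 and 12.9 RPKM in 35S:NGA, against 23.5 and 23.9 RPKM in WT. Every 35S:NGA library was below both WT libraries for NGA1, but the difference of -0.51 ± 0.21 was not called (adjusted p = 0.195). NGA2 had 8.88, 7.47 and 5.78 RPKM in 35S:NGA, against 9.50 and 8.15 RPKM in WT, and the groups overlapped. NGA4 overlapped too, with 4.15, 4.56 and 3.68 RPKM in 35S:NGA, against 3.97 and 3.83 RPKM in WT. In nga, NGA4 was at 0.131, 0.123 and 0.248 RPKM, the only member of the family near 0 in that group. Ordered by their mean level in 35S:NGA, NGA3 came first with 129 ± 33.2 RPKM (SD, n = 3), then NGA1 with 16.7 ± 4.34, NGA2 with 7.38 ± 1.55 and NGA4 with 4.13 ± 0.44 RPKM. In WT the order was NGA1, NGA2, NGA3 and NGA4, with 23.7, 8.82, 5.14 and 3.90 RPKM.

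The NGATHA-like gene NGAL1 (ABS2), known for leaf shape, rose as well. It had 9.07, 8.81 and 12.6 RPKM in 35S:NGA, against 1.96 and 2.06 RPKM in WT, a difference of 1.87 ± 0.18 (adjusted p = 0.0263). Its levels in the nga libraries, 8.30, 14.1 and 8.12 RPKM, were also above both WT libraries. NGAL3 (DPA4), known for leaf margins, had 4.16, 4.64 and 3.79 RPKM in 35S:NGA, against 5.95 and 4.32 RPKM in WT, with overlap and no call. NGAL2 was not among the 6 genes matched to this list. Its locus, AT3G11580, rose too, with a mean of 6.64 RPKM in 35S:NGA, against 2.11 RPKM in WT. The difference was 1.30 ± 0.16 (limma, adjusted p = 0.0342), and this locus was added after its values were seen. None of 3 tested genes of the RAV and TEM list, B3 genes outside the NGATHA family, was called. RAV1 had 14.8, 12.2 and 14.5 RPKM in 35S:NGA, against 7.23 and 10.7 RPKM in WT, with an unadjusted p of 0.0175 from limma.

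**Figure D1:**
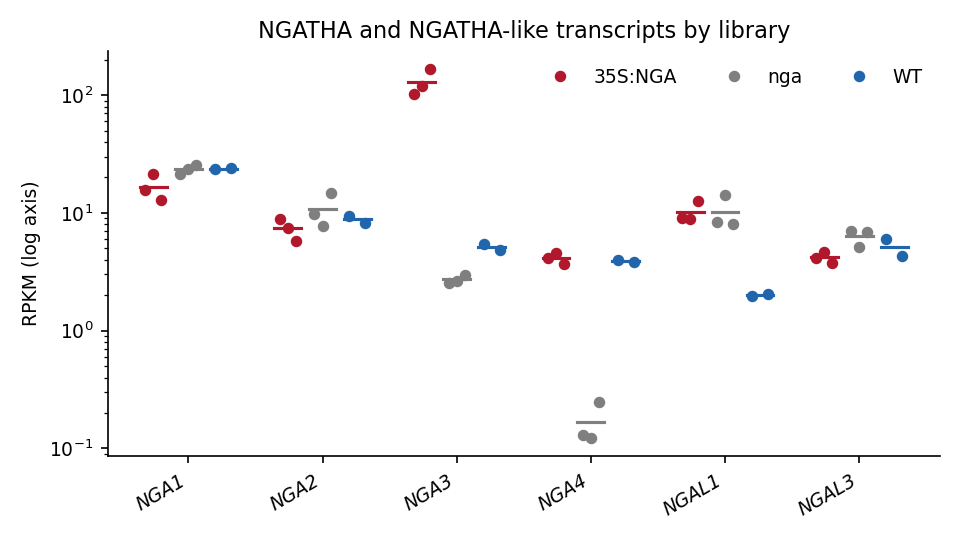
Levels (RPKM, log axis) of NGA1 to NGA4, NGAL1 and NGAL3 in each library of 35S:NGA (red), nga (grey) and WT (blue), where points are libraries and bars are group means. NGA3 sits at 102 to 166 RPKM in 35S:NGA, above every other library, while NGAL1 is higher in 35S:NGA and in nga than in WT.

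The largest rise of all genes with a symbol was that of SEN1, a marker of dark treatment and senescence. SEN1 had 205, 35.2 and 173 RPKM in 35S:NGA, against 1.60 and 1.18 RPKM in WT, a difference of 5.52 ± 0.74 (adjusted p = 0.0365). The groups did not overlap, although 35S:NGA 2 was far below the other two. BCAT-2, an aminotransferase of branched-chain amino acids, had 16.2, 8.60 and 23.8 RPKM in 35S:NGA, against 0.126 and 0.184 RPKM in WT, a difference of 3.79 ± 0.38. In nga, SEN1 was at 293, 687 and 264 RPKM and BCAT-2 at 33.0, 93.0 and 11.2 RPKM, all above both WT libraries. PAP85, a seed storage protein of the vicilin family, had 7.17, 5.00 and 12.01 RPKM in 35S:NGA, against 0.150 and 0.106 RPKM in WT. Its difference was 2.93 ± 0.32, and again no library of one group reached the other. UBC17, a ubiquitin-conjugating enzyme, had 11.7, 7.32 and 9.21 RPKM in 35S:NGA, against 0.964 and 1.11 RPKM in WT, a difference of 2.33 ± 0.20. Some loci without a symbol rose by more than the genes that follow. Of genes with a symbol, the remaining large rises in no other paragraph included ZW9 (2.74 ± 0.35) and SIS (2.12 ± 0.20), a salt-induced serine-rich protein. The others were the UDP-glucose epimerase UGE1 (2.09 ± 0.31) and the CONSTANS-like gene COL5 (2.04 ± 0.27). The adjusted p values of these 4 genes lay between 0.0263 and 0.0422, and none overlapped between the groups. UGE1 was the most abundant of the 4, with 102, 59.7 and 128 RPKM in 35S:NGA, against 22.1 and 19.8 RPKM in WT.

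QQS, an orphan gene known for its effect on starch content, fell most. It had 3.10, 1.47 and 5.10 RPKM in 35S:NGA, against 33.3 and 33.6 RPKM in WT, a difference of -3.12 ± 0.36 (adjusted p = 0.032). CORI3, a cystine lyase induced by coronatine and jasmonate, had 0.427, 0.661 and 0.0746 RPKM in 35S:NGA, against 6.32 and 9.75 RPKM in WT, a difference of -2.70 ± 0.26. It was nearly absent from the 3 overexpression libraries. GDU2, of the glutamine dumper family of small membrane proteins, had 0.0567, 0.202 and 0.168 RPKM in 35S:NGA, against 5.62 and 4.72 RPKM in WT, a difference of -2.43 ± 0.17 (adjusted p = 0.0213). The early nodulin-like gene ENODL14 had 16.6, 18.2 and 17.2 RPKM in 35S:NGA, against 62.0 and 83.5 RPKM in WT. Its difference was -1.99 ± 0.15, and the 35S:NGA libraries were closer to each other than the WT libraries were. LOX2, a lipoxygenase of jasmonate synthesis, had 83.0, 90.6 and 141 RPKM in 35S:NGA, against 319 and 398 RPKM in WT, a difference of -1.80 ± 0.25. Levels in nga were 3.72, 14.1 and 9.91 RPKM for QQS and 2.13, 1.23 and 1.75 RPKM for GDU2. ENODL14 had 24.7, 13.0 and 41.5 RPKM there, and these genes were all below both WT libraries. CORI3, with 4.16, 10.2 and 26.4 RPKM, and LOX2, with 129, 156 and 333 RPKM, overlapped WT in nga. LOX2 was the single one of 28 jasmonate genes tested that was called, beside 0.862% fallen among all genes. CORI3 is not in that list. No gene of the jasmonate list was called without 35S:NGA 2, and 2 fell without 35S:NGA 3.

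**Figure D2:**
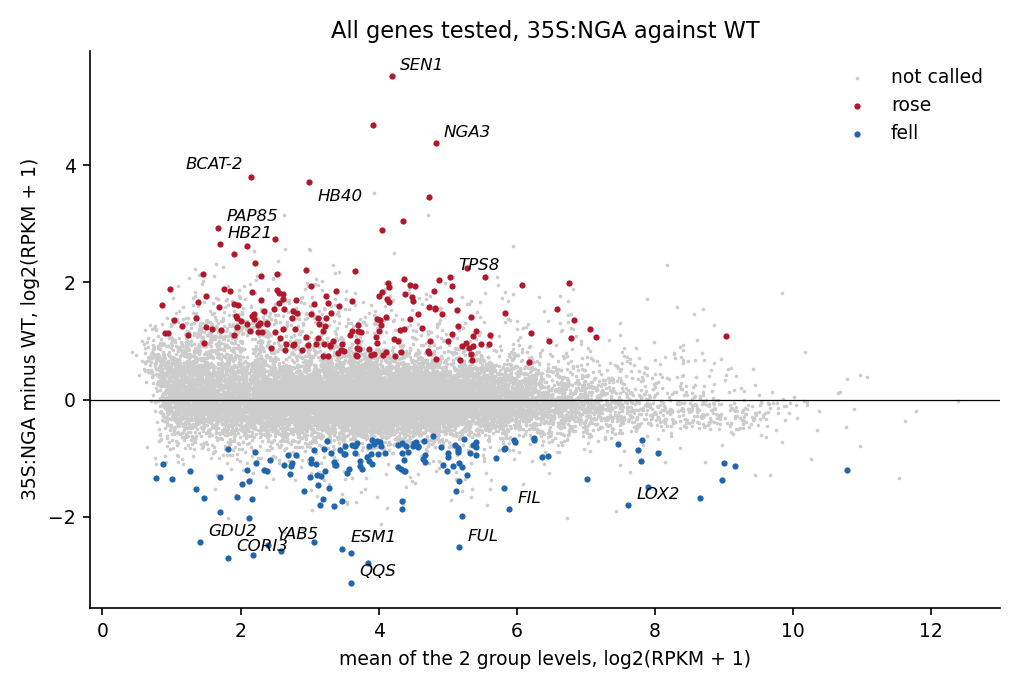
Difference between 35S:NGA and WT, on the log2(RPKM + 1) scale, against the mean level of each of 17517 genes tested, with the 193 risen genes in red, the 151 fallen genes in blue and all others in grey. SEN1 (5.52), AT2G05540 (4.68, not named in the plot) and NGA3 (4.38) stand at the top and QQS (-3.12) at the bottom, and calls are found over most of the range of levels.

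Some genes of lateral organ polarity were among those that fell in 35S:NGA. Of 27 tested regulators of polarity, boundaries and meristems, 5 fell and none rose, beside 0.862% fallen among all genes. Like all gene lists used here, this one was chosen with earlier results of these data known. The counts of the lists therefore describe the data only. The list median was -0.20, beside 0.01 over all genes. The 5 were FIL, YAB2, YAB3, YAB5 and AS1. FIL (AFO), YAB2, YAB3 and YAB5 are YABBY transcription factors known for the abaxial side of leaves and floral organs and for blade growth, and AS1 is a MYB protein that keeps meristem genes silent in leaves. FIL had 32.9, 36.8 and 21.0 RPKM in 35S:NGA, against 106 and 115 RPKM in WT, a difference of -1.88 ± 0.24 (adjusted p = 0.0363). YAB3, its closest relative, had 11.8, 10.3 and 8.18 RPKM in 35S:NGA, against 40.1 and 31.4 RPKM in WT, a difference of -1.73 ± 0.18 (adjusted p = 0.0305). YAB5 had 1.53, 1.84 and 0.461 RPKM in 35S:NGA, against 11.5 and 11.1 RPKM in WT, a difference of -2.49 ± 0.30. No library of these 3 genes crossed into the other group, and 35S:NGA 3 was the lowest for each. YAB2 differed by -1.06 ± 0.16 and AS1 by -1.11 ± 0.15, each without overlap. The YABBY genes of carpel and ovule were not called. CRC, known for nectaries and carpel shape, had 19.2, 13.6 and 7.39 RPKM in 35S:NGA, against 29.6 and 41.7 RPKM in WT, a difference of -1.42 ± 0.37 (adjusted p = 0.105). INO, the YABBY gene of the outer integument, had 52.8, 45.6 and 43.5 RPKM in 35S:NGA, against 42.2 and 40.0 RPKM in WT, and the difference of 0.19 ± 0.12 was not called. The polarity list had 4 fallen genes without 35S:NGA 2 and 6 without 35S:NGA 3. In nga, FIL was at 87.2, 55.4 and 59.3 RPKM and YAB5 at 7.62, 5.22 and 5.85 RPKM, between the levels of 35S:NGA and WT. YAB3, with 28.2, 26.4 and 36.3 RPKM, and AS1, with 51.2, 34.0 and 38.0 RPKM, overlapped WT there, and YAB2, with 73.5, 73.5 and 45.1 RPKM, was above both WT libraries.

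The 250 bases before the annotated gene start are shown for these 3 YABBY genes, which fell together. They were read from the RefSeq genome TAIR10.1 by its own annotation, 5′ to 3′ on the strand of the gene, and all 3 genes are on the minus strand. FIL is at chr2:18630780-18631029, YAB3 at chr4:75577-75826 and YAB5 at chr2:11307011-11307260. Capitals would mark a match to CACCTG, the element bound in vitro by the B3 domain of RAV1, to CACTTG, reported for NGATHA1 upstream of NCED3, or to CACGTG, the G-box of bHLH and bZIP factors, on either strand.
FIL: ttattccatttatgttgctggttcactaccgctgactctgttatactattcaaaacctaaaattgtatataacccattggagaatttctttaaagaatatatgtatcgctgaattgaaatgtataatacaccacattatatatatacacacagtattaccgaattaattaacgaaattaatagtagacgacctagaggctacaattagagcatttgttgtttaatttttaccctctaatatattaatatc
YAB3: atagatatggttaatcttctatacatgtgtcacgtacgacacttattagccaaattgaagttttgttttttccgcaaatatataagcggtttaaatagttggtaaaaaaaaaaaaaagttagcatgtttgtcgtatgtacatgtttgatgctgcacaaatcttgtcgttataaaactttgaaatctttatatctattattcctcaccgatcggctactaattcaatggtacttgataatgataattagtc
YAB5: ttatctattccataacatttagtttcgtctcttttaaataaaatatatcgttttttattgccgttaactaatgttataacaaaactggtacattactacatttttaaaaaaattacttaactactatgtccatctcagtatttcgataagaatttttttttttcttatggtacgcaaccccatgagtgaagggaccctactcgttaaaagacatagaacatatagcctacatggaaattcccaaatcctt
None of the 3 windows held these letters. Bases after the annotated gene start, among them the 5′ untranslated region, were not searched. CACCTG was found before 3.31% of the fallen, 1.04% of the risen and 2.51% of all genes tested, and CACTTG before 11.9%, 7.29% and 9.27% of the same sets. The shares rest on 151 fallen, 192 risen and 17443 tested genes with a window. The motifs differ from each other at the fourth base alone, so no site counts for more than 1 of them, and a match describes letters only.

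Regulators of organ growth were also called. Of 29 tested, 5 fell and none rose, beside 0.862% fallen and 1.10% risen among all genes, and the list median was -0.33. An unadjusted p under 0.05 was found for 13 members with lower and 4 with higher levels, beside 2005 and 2392 of all 17517 genes. The fallen genes included TCP3, TCP4 and TCP10, transcription factors of the CIN class that end cell proliferation in leaves and are targets of miR319. TCP3 had 10.9, 16.2 and 11.2 RPKM in 35S:NGA, against 30.2 and 31.0 RPKM in WT, a difference of -1.22 ± 0.19 (adjusted p = 0.0428). TCP4 had 1.92, 2.65 and 2.09 RPKM in 35S:NGA, against 6.27 and 5.30 RPKM in WT, a difference of -1.08 ± 0.16 (adjusted p = 0.0425). TCP10 had 15.4, 17.8 and 16.7 RPKM in 35S:NGA, against 28.1 and 28.6 RPKM in WT, a difference of -0.74 ± 0.11. The groups stayed apart for all 3. The 2 other fallen members are known to promote growth. AIL6, an AP2-domain factor of floral organ primordia, had 4.80, 4.43 and 3.02 RPKM in 35S:NGA, against 12.8 and 10.5 RPKM in WT, a difference of -1.33 ± 0.20, and GRF4 differed by -0.84 ± 0.14 (adjusted p = 0.0487). The organ growth list had 1 fallen gene without 35S:NGA 2, and 1 fallen and 1 risen gene without 35S:NGA 3.

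Among 22 floral MADS-box and ovule regulators, FUL (AGL8) alone was called, and it fell, beside 0.862% fallen among all genes. FUL, known for valve growth of the fruit, had 18.5, 15.7 and 8.59 RPKM in 35S:NGA, against 89.5 and 76.3 RPKM in WT, a difference of -2.52 ± 0.30 (adjusted p = 0.0325). Its levels in nga, 149, 123 and 116 RPKM, were above both WT libraries. The valve margin genes SHP1 and SHP2 were not called. SHP1 had 81.5, 68.8 and 72.1 RPKM in 35S:NGA, against 58.4 and 52.5 RPKM in WT, while SHP2 overlapped between the groups.

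Of 27 tested regulators of style, stigma and transmitting tract, 2 rose and none fell, beside 1.10% risen among all genes, with a median of 0.20. Without 35S:NGA 2 the count was 1, and without 35S:NGA 3 it was 2. Both are closely related bHLH genes. ALC, known for the opening of the fruit, had 163, 142 and 166 RPKM in 35S:NGA, against 81.3 and 69.9 RPKM in WT, a difference of 1.04 ± 0.13 (adjusted p = 0.0363). SPT, known for style and transmitting tract, had 63.2, 67.4 and 53.4 RPKM in 35S:NGA, against 31.1 and 30.9 RPKM in WT, a difference of 0.95 ± 0.13 (adjusted p = 0.0375). Both were higher in each overexpression library than in either WT library. The nga libraries were also above both WT libraries, with 209, 241 and 146 RPKM for ALC and 45.1, 39.2 and 36.8 RPKM for SPT. Of the other members, 7 more had an unadjusted p under 0.05 with higher levels and 3 with lower levels. Over all 17517 genes tested, 2392 had higher and 2005 lower levels at that threshold. IND, a bHLH gene of the valve margin, averaged 11.95 RPKM in 35S:NGA, against 3.69 RPKM in WT, with a difference of 1.39 ± 0.33 that was not called (adjusted p = 0.0917).

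Auxin genes were called in either direction. In the list of auxin synthesis and transport, with 21 members tested, 3 fell and 1 rose, beside 0.862% fallen and 1.10% risen among all genes, and the median was -0.17. The counts were 2 fallen and no risen gene without 35S:NGA 2, and 3 fallen and no risen gene without 35S:NGA 3 and after quantile normalization. TAR2, a tryptophan aminotransferase of auxin synthesis, had 12.1, 12.2 and 12.4 RPKM in 35S:NGA, against 29.6 and 28.6 RPKM in WT, a difference of -1.19 ± 0.10 (adjusted p = 0.0232). YUC6, a flavin monooxygenase of the next step, had 1.95, 2.08 and 1.39 RPKM in 35S:NGA, against 5.75 and 5.11 RPKM in WT, a difference of -1.20 ± 0.17. The overexpression libraries were close together for TAR2, and no library crossed over for either gene. The carrier gene PIN6 had 1.41, 1.32 and 1.62 RPKM in 35S:NGA, against 5.95 and 5.42 RPKM in WT, a difference of -1.45 ± 0.14. The efflux carrier gene PIN3 rose, with 12.8, 12.4 and 14.0 RPKM in 35S:NGA, against 7.67 and 6.55 RPKM in WT, a difference of 0.79 ± 0.13 (adjusted p = 0.0465). Of 34 auxin response genes, 2 rose and none fell, beside 1.10% risen among all genes, and 3 rose without 35S:NGA 3. IAA7, a repressor of auxin response, had 121, 120 and 129 RPKM in 35S:NGA, against 67.9 and 54.9 RPKM in WT, a difference of 1.00 ± 0.13. GH3.5 (WES1), which conjugates auxin to amino acids, had 49.6, 33.3 and 52.6 RPKM in 35S:NGA, against 14.8 and 13.6 RPKM in WT, a difference of 1.57 ± 0.21. Both stood clear of WT in every overexpression library.

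Other hormone lists held few calls. LOG1, which makes active cytokinin, was the single called gene of 21 cytokinin genes, beside 1.10% risen among all genes. LOG1 had 33.6, 26.3 and 32.1 RPKM in 35S:NGA, against 8.41 and 9.55 RPKM in WT, a difference of 1.66 ± 0.14 (adjusted p = 0.0232). The cytokinin list had 2 risen genes without 35S:NGA 3, and 1 risen and 1 fallen gene after quantile normalization. BEH1, a relative of the brassinosteroid factor BZR1, was the single called one of 21 brassinosteroid genes, beside 0.862% fallen among all genes. BEH1 had 0.198, 0.446 and 0.123 RPKM in 35S:NGA, against 2.72 and 1.76 RPKM in WT. Its difference of -1.36 ± 0.22 (adjusted p = 0.0482) was called in none of the fits that left out a library. The same held for TCP4, TCP10, GRF4, PIN3, IVD, CYCB1;1, SOT16 and EPF2, which are described in other paragraphs. No gene was called by limma among 16 gibberellin, 16 ethylene and 16 salicylic acid genes. In these 3 lists 2, 4 and no genes had an unadjusted p under 0.05 with higher levels, and none, none and 1 with lower levels. Over all 17517 genes tested, 2392 had higher and 2005 lower levels at that threshold. The gibberellin receptor gene GID1C had 13.8, 9.67 and 8.06 RPKM in 35S:NGA, against 5.39 and 3.48 RPKM in WT (adjusted p = 0.0906), and the deactivating enzyme gene GA2OX6 had 3.75, 3.33 and 3.00 RPKM in 35S:NGA, against 1.69 and 1.86 RPKM in WT (adjusted p = 0.0856). EIN3, the central transcription factor of ethylene signalling, had 129, 117 and 106 RPKM in 35S:NGA, against 83.9 and 79.9 RPKM in WT, without a call. EDS5, a transporter needed for salicylic acid synthesis, had 3.11, 3.40 and 2.61 RPKM in 35S:NGA, against 5.23 and 4.48 RPKM in WT, without a call.

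Of 29 abscisic acid and drought genes, 2 rose and none fell, beside 1.10% risen among all genes, with a median of 0.48. An unadjusted p under 0.05 was found for 13 members with higher and none with lower levels, beside 2392 and 2005 of all 17517 genes. The 2 were HB40 and HB21, class I homeodomain-leucine zipper genes that act in axillary buds to raise abscisic acid through NCED3. HB40 had 31.1, 20.3 and 32.0 RPKM in 35S:NGA, against 1.52 and 0.840 RPKM in WT, a difference of 3.71 ± 0.24 (adjusted p = 0.0213). HB21 had 6.26, 6.69 and 8.38 RPKM in 35S:NGA, against 0.459 and 0.132 RPKM in WT, a difference of 2.65 ± 0.19 (adjusted p = 0.0213). Both were low in WT and clearly expressed in every overexpression library. They were also above WT in nga, where HB40 had 37.5, 113 and 9.75 RPKM and HB21 had 6.97, 10.4 and 6.42 RPKM. NCED3, the rate-limiting enzyme of abscisic acid synthesis, had 2.94, 5.53 and 1.28 RPKM in 35S:NGA, against 1.39 and 2.24 RPKM in WT, and the groups overlapped. The third gene of the HB21, HB40 and HB53 group, HB53, averaged 2.02 RPKM in 35S:NGA, against 0.0953 RPKM in WT, with a difference of 1.29 ± 0.51 that was not called (adjusted p = 0.187). The list had 4 risen genes without 35S:NGA 3 and 2 without 35S:NGA 2.

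The windows before HB40 and HB21 are shown because both genes rose with the NGATHA transcript and belong to 1 family. HB40 is at chr4:17316442-17316691 and HB21 at chr2:8051317-8051566, both on the minus strand of TAIR10.1 and printed as above, with a G-box in capitals.
HB40: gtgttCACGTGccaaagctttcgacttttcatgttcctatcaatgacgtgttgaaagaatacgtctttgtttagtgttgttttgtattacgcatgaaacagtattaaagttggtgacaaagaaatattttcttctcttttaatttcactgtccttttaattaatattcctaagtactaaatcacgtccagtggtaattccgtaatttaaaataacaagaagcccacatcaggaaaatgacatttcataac
HB21: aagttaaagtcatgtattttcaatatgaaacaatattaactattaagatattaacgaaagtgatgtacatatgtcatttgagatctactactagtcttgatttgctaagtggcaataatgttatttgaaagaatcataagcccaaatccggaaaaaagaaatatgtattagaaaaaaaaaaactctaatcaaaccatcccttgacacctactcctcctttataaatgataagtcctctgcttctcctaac
The HB40 window held 1 CACGTG, which starts 245 bases before the gene start, and the HB21 window held none of the 3 motifs. CACGTG, which is its own reverse complement, was found before 9.38% of the risen, 4.64% of the fallen and 7.37% of all genes tested. It was added to the search after the HB40 window had been read.

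Genes induced by darkness and low energy were called in 1 direction. Of 20 tested, 5 rose and none fell, beside 1.10% risen among all genes. The list median was 1.06, 14 members had an unadjusted p under 0.05 with higher levels, beside 2392 of all 17517 genes, and 15 had every 35S:NGA library above both WT libraries, beside 23.2%. SEN1 and BCAT-2 were among the 5. TPS8, a trehalose-phosphate synthase-like protein of the class known to be induced in sugar starvation, had 86.4, 58.3 and 56.7 RPKM in 35S:NGA, against 13.8 and 15.5 RPKM in WT, a difference of 2.10 ± 0.21 (adjusted p = 0.0263). TPS11, of the same class, had 50.7, 30.4 and 38.5 RPKM in 35S:NGA, against 12.2 and 10.8 RPKM in WT, a difference of 1.68 ± 0.22 (adjusted p = 0.0363). IVD, a mitochondrial dehydrogenase of leucine breakdown, had 20.7, 18.1 and 24.2 RPKM in 35S:NGA, against 11.3 and 9.26 RPKM in WT, a difference of 0.96 ± 0.16 (adjusted p = 0.0494). None of these 3 overlapped between the groups. DIN10, a further dark-induced gene, averaged 227 RPKM in 35S:NGA, against 54.0 RPKM in WT, and was not called (adjusted p = 0.105). The list had 6 risen genes without 35S:NGA 2 and 3 without 35S:NGA 3. In nga, TPS8 was at 67.0, 120 and 45.8 RPKM and IVD at 21.9, 36.7 and 19.9 RPKM, above both WT libraries.

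Of 26 clock genes, 2 rose and none fell, beside 1.10% risen among all genes, with a median of 0.47. RVE4 (LCL1), a MYB-like activator of evening genes, had 36.7, 33.4 and 32.5 RPKM in 35S:NGA, against 14.1 and 11.2 RPKM in WT, a difference of 1.37 ± 0.14 (adjusted p = 0.0263). CDF2, a DOF factor that delays flowering, had 8.31, 5.83 and 8.37 RPKM in 35S:NGA, against 2.83 and 2.75 RPKM in WT, a difference of 1.15 ± 0.18 (adjusted p = 0.045). The 3 overexpression libraries were alike for both genes, whereas in nga they spread over 45.0, 190 and 42.0 RPKM for RVE4 and over 9.47, 89.6 and 5.28 RPKM for CDF2. The hour at which carpels were picked is not given in the sources used here. Clock calls came to 3 risen genes without 35S:NGA 2 and 1 without 35S:NGA 3 and after quantile normalization.

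**Figure D3:**
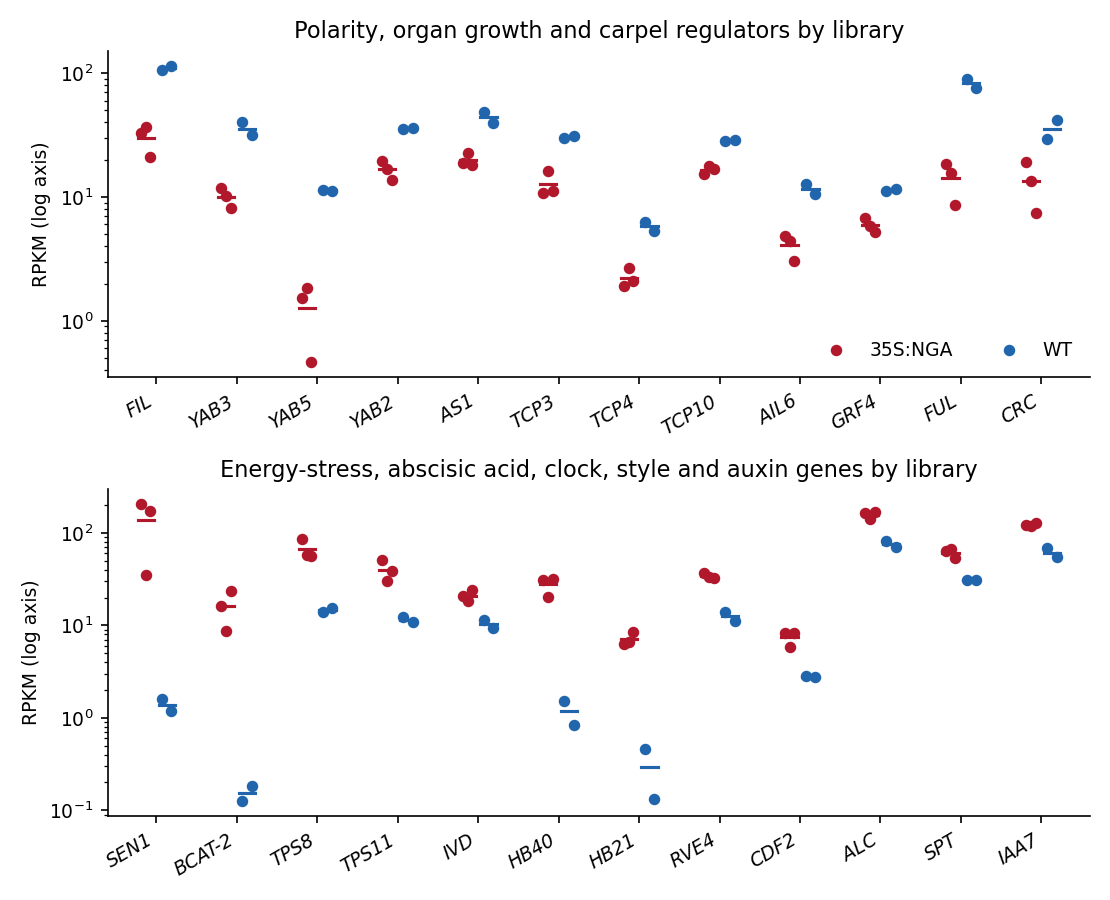
Levels (RPKM, log axis) of 12 regulators of polarity, organ growth and carpel form (upper panel) and of 12 energy-stress, abscisic acid, clock, style and auxin genes (lower panel) in 35S:NGA (red) and WT (blue), where points are libraries and bars are group means. All 24 genes show no overlap between the groups, and CRC, with 7.39 to 19.2 RPKM in 35S:NGA, is the 1 that was not called. The others were picked from called genes. Among all genes tested, every 35S:NGA library lay above both WT libraries for 23.2% and below both for 23.5%.

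Few cell cycle genes were called. Of 40 tested, 2 fell and none rose, beside 0.862% fallen among all genes, and the list median was -0.45. Without 35S:NGA 2 the count was 1, and without 35S:NGA 3 it was 2. An unadjusted p under 0.05 was found for 24 members with lower and 4 with higher levels, beside 2005 and 2392 of all 17517 genes, and 26 members had every 35S:NGA library below both WT libraries, beside 23.5% among all genes. CYCB1;1, a mitotic cyclin, had 19.7, 17.2 and 19.2 RPKM in 35S:NGA, against 31.5 and 30.5 RPKM in WT, a difference of -0.70 ± 0.11 (adjusted p = 0.0469). The other fallen member, KRP3 (ICK6), is an inhibitor of cyclin-dependent kinases. It had 6.74, 7.65 and 6.26 RPKM in 35S:NGA, against 18.1 and 15.9 RPKM in WT, a difference of -1.19 ± 0.13 (adjusted p = 0.0311). Neither gene overlapped between the groups.

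Of 14 flavonoid genes, 2 fell and none rose, beside 0.862% fallen among all genes, with a median of -0.54. No member was called by limma without 35S:NGA 2, and 2 fell without 35S:NGA 3. CHI (TT5), the chalcone isomerase, had 30.8, 38.7 and 38.2 RPKM in 35S:NGA, against 69.1 and 75.6 RPKM in WT, a difference of -0.997 ± 0.140 (adjusted p = 0.0383). MYB111, an activator of flavonol synthesis, had 8.99, 10.05 and 11.0 RPKM in 35S:NGA, against 19.0 and 16.97 RPKM in WT, a difference of -0.79 ± 0.13 (adjusted p = 0.0488). Both genes were lower in every overexpression library than in either WT library. Levels in nga were 20.0, 24.6 and 26.8 RPKM for CHI, also below both WT libraries.

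Glucosinolate genes were put together as a list after several of them had been seen among the largest falls, so their count describes the data and supports nothing. Glucosinolates are the sulphur-containing defence compounds of this plant family, and the indolic ones are made from tryptophan. Of 25 tested members, 8 fell and none rose, beside 0.862% fallen among all genes. The count was 4 without 35S:NGA 2, 8 without 35S:NGA 3 and 0 in the fit of all 8 libraries. CYP79B2, which makes indole-3-acetaldoxime from tryptophan, had 1.74, 1.41 and 0.404 RPKM in 35S:NGA, against 8.77 and 6.54 RPKM in WT, a difference of -2.03 ± 0.32 (adjusted p = 0.0446). CYP83B1, the next enzyme, had 4.46, 3.74 and 4.09 RPKM in 35S:NGA, against 16.2 and 14.8 RPKM in WT, a difference of -1.70 ± 0.13 (adjusted p = 0.0213). IGMT5, a methyltransferase of indole glucosinolates, had 2.99, 2.20 and 2.59 RPKM in 35S:NGA, against 15.5 and 21.5 RPKM in WT, a difference of -2.43 ± 0.18. All 3 were several times lower in each overexpression library. MYB34, the MYB activator of the indolic branch, had 1.21, 0.862 and 1.11 RPKM in 35S:NGA, against 4.69 and 3.64 RPKM in WT, a difference of -1.32 ± 0.17. ESM1, which favours isothiocyanates in glucosinolate breakdown, had 2.63, 3.30 and 4.98 RPKM in 35S:NGA, against 24.4 and 26.5 RPKM in WT, a difference of -2.54 ± 0.22. The other fallen members were the kinase AKN2 that supplies activated sulphate (-1.81 ± 0.20), the sulfotransferase SOT16 (-0.86 ± 0.14) and the glutathione transferase GSTF9 (-0.86 ± 0.12), and none of the 8 overlapped. The myrosinase gene TGG1, which cleaves glucosinolates, averaged 483 RPKM in 35S:NGA, against 238 RPKM in WT, and was not called (adjusted p = 0.182). In nga, CYP83B1 was at 8.45, 17.1 and 40.2 RPKM, on both sides of the WT levels.

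**Figure D4:**
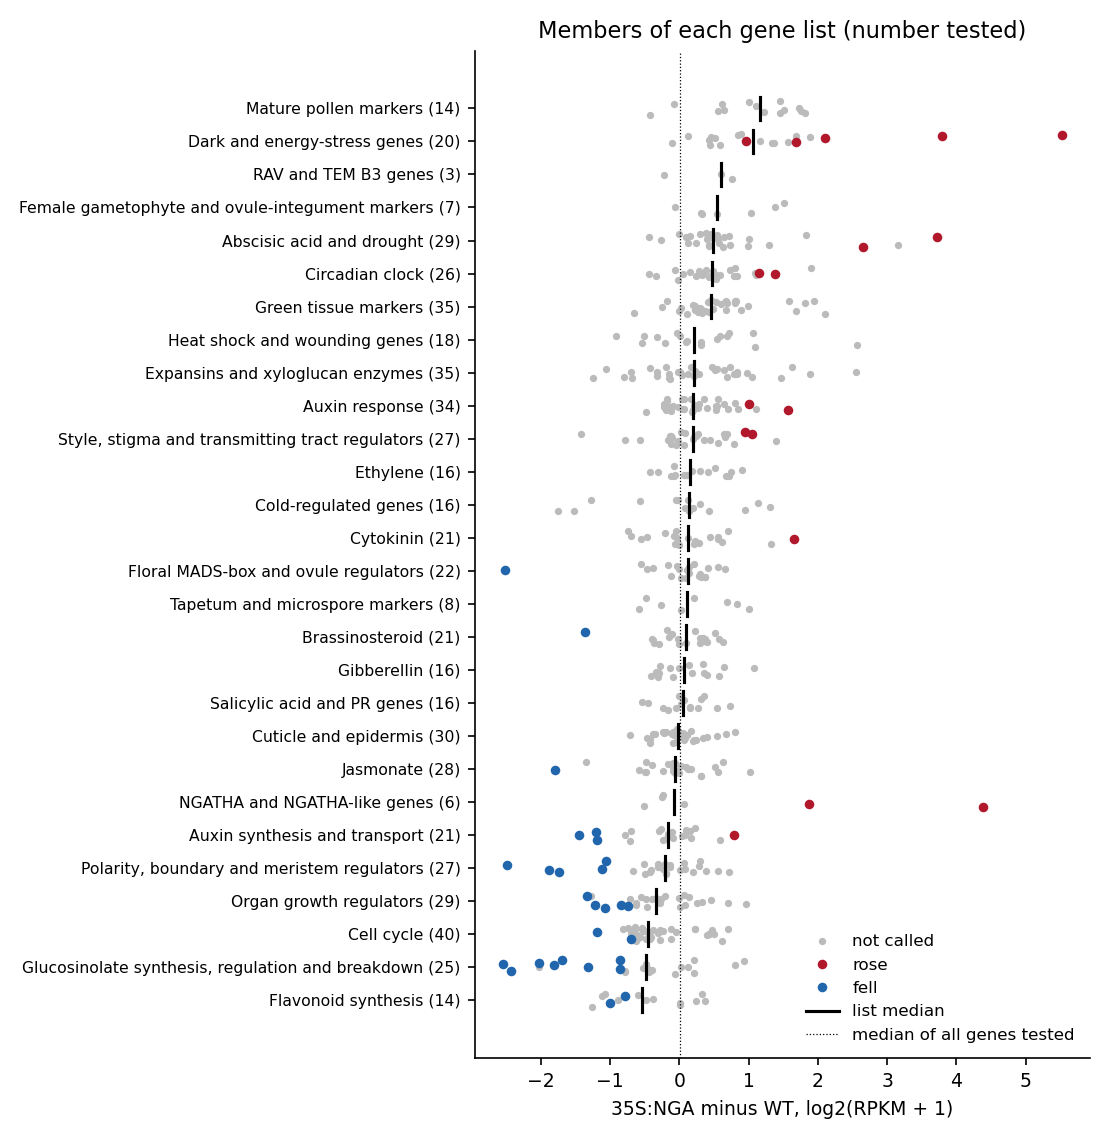
Difference between 35S:NGA and WT, on the log2(RPKM + 1) scale, of each tested member of 28 gene lists, with risen members in red, fallen members in blue, others in grey, the list median as a bar and the number tested in parentheses. The mature pollen markers and the dark and energy-stress list have the highest medians, 1.17 and 1.06, and the flavonoid, glucosinolate and cell cycle lists the lowest, with medians of -0.54, -0.48 and -0.45.

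No gene was called by limma among 35 expansins and xyloglucan enzymes, 30 cuticle and epidermis genes and 16 cold-regulated genes. Unadjusted p under 0.05 was found there for 8, none and 2 genes with higher and for 5, 4 and none with lower levels. Over all 17517 genes tested it was found for 2392 with higher and 2005 with lower levels. XTH15, a xyloglucan hydrolase of the cell wall, came nearest, with 632, 504 and 733 RPKM in 35S:NGA, against 178 and 279 RPKM in WT (difference 1.46 ± 0.25, adjusted p = 0.0519). CER2, a gene of wax synthesis, had 4.23, 3.68 and 5.36 RPKM in 35S:NGA, against 7.99 and 7.59 RPKM in WT (adjusted p = 0.0872). The cold-regulated dehydrin gene COR47 had 116, 226 and 123 RPKM in 35S:NGA, against 44.8 and 78.0 RPKM in WT (adjusted p = 0.111). In all 3 genes the groups stood apart without a call.

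Markers of other cells differed in level between the libraries. The summed level of 25 markers of mature pollen was 122, 276 and 377 RPKM in 35S:NGA, against 58.1 and 106 RPKM in WT, and 10 of 14 tested members had every 35S:NGA library above both WT libraries, beside 23.2% among all genes. The median difference of the 14 was 1.17, the highest of the 28 lists. AGP11, a defining marker of pollen, was at 0 in all 5 libraries, and 8 of the 25 were under 1 RPKM in all of them. The summed level of 36 green tissue markers was 7900, 8080 and 17105 RPKM in 35S:NGA, against 7338 and 7328 RPKM in WT, so that 35S:NGA 3 stood above the rest. LHCB2.1, a chlorophyll-binding protein, had 40.9, 70.8 and 247 RPKM in 35S:NGA, against 13.3 and 30.4 RPKM in WT, and was not called. Markers of the female gametophyte and integuments summed to 66.8, 67.6 and 90.8 RPKM in 35S:NGA, against 54.3 and 51.8 RPKM in WT. EC1.3, an egg cell protein of this list, had 5.84, 5.13 and 11.6 RPKM in 35S:NGA, against 1.83 and 1.86 RPKM in WT, and was not called. Markers of tapetum and microspores summed to 46.4, 37.2 and 40.7 RPKM in 35S:NGA, between the 60.0 and 24.6 RPKM of WT, and DYT1 was at 0 in all 5 libraries. The summed level of 26 heat shock and wounding genes was 1620, 1871 and 927 RPKM in 35S:NGA, against 720 and 1539 RPKM in WT. No member of these 5 lists was called by limma, with 14, 35, 7, 8 and 18 members tested. An unadjusted p under 0.05 was found for 11, 6, 5, 3 and 3 members with higher levels, beside 2392 of all 17517 genes. It was found for 1 heat shock or wounding gene with a lower level, beside 2005 of all genes. The petal and stamen gene AP3 had 13.3, 16.5 and 10.5 RPKM in 35S:NGA, against 17.7 and 17.5 RPKM in WT, while PI had 3.87, 3.35 and 4.37 RPKM in 35S:NGA, against 2.65 and 1.98 RPKM in WT, and neither was called. The part of pollen, green tissue and carpel stage in the energy-stress, abscisic acid and clock lists was not tested.

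**Figure D5:**
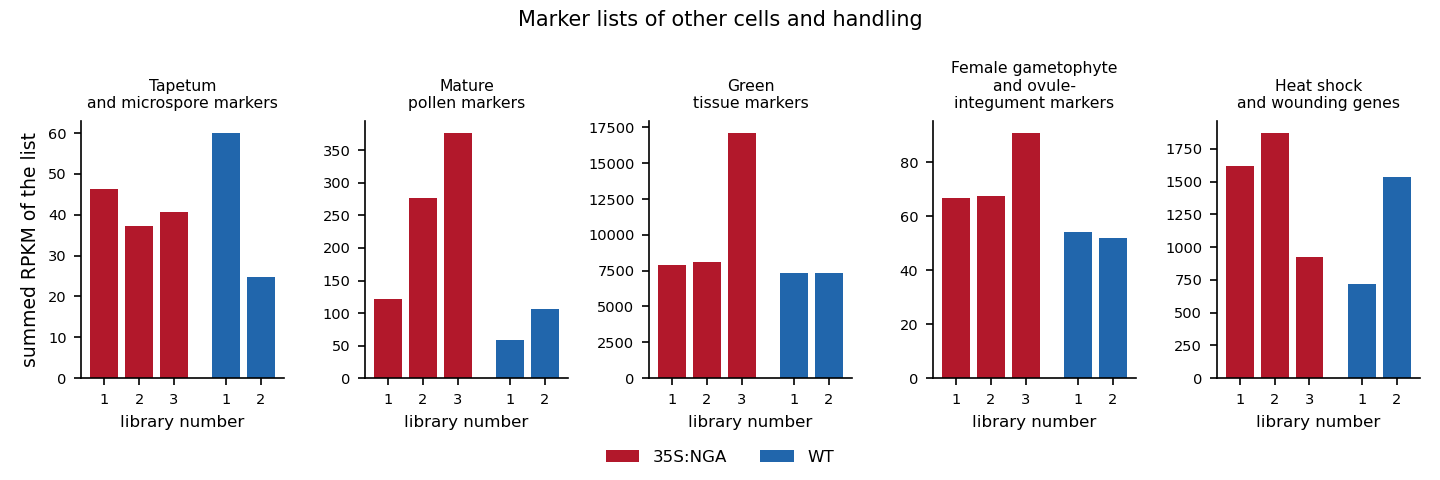
Summed RPKM of 5 marker lists in each library of 35S:NGA (red) and WT (blue), with a separate axis from 0 for each list. Pollen markers reach 122 to 377 RPKM in 35S:NGA, against 58.1 and 106 RPKM in WT, and green tissue markers are highest in 35S:NGA 3 with 17105 RPKM.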

How the data were processed

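Transcript levels were read from the processed files of 8 carpel libraries. The values are RPKM as deposited by the authors, per the file headers, with decimal commas; their unit was entered as other in the table of units because of the commas, and was not tested against the values. The submitters' processing notes name FastQC and TAIR10, while no source used here gives the aligner or the counter. Of 33590 entries per file, 6374 without a locus (all 0), 18 entries of 9 repeated loci and 1 malformed entry were left out, which left 27197 loci, of which 26710 matched the RefSeq annotation of TAIR10.1. Depth was 23.1 to 36.2 M mapped reads in the 5 libraries compared. No column of a sample outside the 8 libraries was used. The nga libraries entered as printed values and in the fit of all 8 libraries.

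Levels were taken as log2(RPKM + 1), with a pseudocount of 1, for the 17517 genes that reached 1 RPKM in at least 2 of the 5 libraries. A limma model in which the prior variance follows the mean was fitted to 35S:NGA and WT alone, as the files hold no counts, with Benjamini-Hochberg adjustment over all genes and a threshold of 0.05. An exact permutation of 3 against 2 libraries was not used, as it offers too few arrangements. The fitting script was first tested on simulated data.

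Named genes were NGA1 to NGA4, the 12 called genes with the largest difference in each direction that had a symbol, a group mean of 5 RPKM or more and no overlap, and from each list the 3 called members of lowest p, or 2 uncalled ones where none was called. Genes outside this rule were chosen after their values were seen or as markers. They were the further called members of lists, NGAL3, AT3G11580 (NGAL2), CRC, NCED3, HB53, IND, DIN10, TGG1, AT2G05540 and the carpel, petal and stamen genes. There were 27 gene lists with 699 of 719 entries matched, and 1 list of glucosinolate genes was added after values were seen. The members and lists were chosen with earlier results of these data known. Alternatives were pseudocounts of 0.1 and 5, no filter, a mean of at least 5 RPKM, quantile normalization, equal medians, a fit of all 8 libraries, no trend, a robust prior, a replicate block, a 2-fold minimum and leaving out each library. Promoter windows of 250 bases were searched on both strands. The tools used were R 4.3.3 and limma 3.58.1, with Python 3.11.15, pandas 2.3.3, numpy 2.4.6 and matplotlib 3.10.9. Protein sequences are not given here.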

Additional observations from a re-analysis of the deposited data

How the results depend on the processing

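The counts of 193 risen and 151 fallen genes changed by over 1.5 times under several settings. With a pseudocount of 5, 117 genes rose, and with a 2-fold minimum 86 fell. Without the filter on low values 1 gene rose (NGA3) and 1 fell (GDU2), and in the fit of all 8 libraries 35 rose and 25 fell. Leaving out 1 library gave 0 to 256 risen and 0 to 204 fallen genes. With a replicate block 2237 genes rose and 1412 fell. The groups share 2 replicate numbers, and the differences between libraries 1 and 2 of WT and of 35S:NGA had a correlation of 0.46 over genes. The titles do not say what a number shares, so the libraries were not taken as pairs. Under the other settings the counts stayed within 1.5 times. The 344 called genes kept their direction in every setting in which they were tested. Among uncalled genes NGA4 turned to -0.0409 after quantile normalization, STK to -0.0113 with equal medians and SUP to 0.0147 with the replicate block. Leaving out 1 library gave -0.0546 to 0.112 for STK and -0.265 to 0.0147 for SUP. The cause was not tested. With 2 WT libraries, the calls rest on few residual degrees of freedom, and depth, from 23.1 M reads, limits genes near 1 RPKM.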

Other observations

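Some called genes that are in no list are described here, chosen after their values were seen, so their grouping supports nothing. Genes of abscisic acid signalling were among the risen ones. The receptor gene PYL5 had 28.2, 25.5 and 21.5 RPKM in 35S:NGA, against 9.36 and 8.87 RPKM in WT, a difference of 1.36 ± 0.14 (SE, limma, adjusted p = 0.03). OST1, the kinase that closes stomata, had 14.5, 15.9 and 16.5 RPKM in 35S:NGA, against 8.68 and 8.98 RPKM in WT (difference 0.76 ± 0.11). AFP2 and TMAC2, which dampen abscisic acid responses, differed by 0.81 ± 0.10 and 1.25 ± 0.19. The photoreceptor gene PHYA had 61.2, 52.4 and 53.2 RPKM in 35S:NGA, against 30.3 and 27.4 RPKM in WT (0.92 ± 0.12), and ADPG1, a polygalacturonase of organ separation, had 3.80, 3.21 and 2.38 RPKM in 35S:NGA, against 0.793 and 0.365 RPKM in WT (1.39 ± 0.22). None of these genes overlapped between the groups, and each lost its call without WT 1, without WT 2 and without 35S:NGA 1. OST1, AFP2, TMAC2, PHYA and ADPG1 also lost it without 35S:NGA 2.

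Fallen genes outside the lists included regulators of blades and stomata. WOX1, a homeobox gene of blade growth, had 3.73, 4.75 and 4.93 RPKM in 35S:NGA, against 14.4 and 10.5 RPKM in WT (-1.29 ± 0.18). SPCH, the bHLH factor that starts the stomatal lineage, had 4.42, 5.48 and 2.99 RPKM in 35S:NGA, against 15.2 and 11.5 RPKM in WT (-1.45 ± 0.24), and EPF2, a peptide that limits that lineage, differed by -1.03 ± 0.16. BLH4, a homeodomain gene of leaf margins, had 0.630, 0.497 and 0.506 RPKM in 35S:NGA, against 4.00 and 3.93 RPKM in WT (-1.69 ± 0.15). Genes of mitosis fell by less. The kinase gene AUR2 differed by -0.78 ± 0.11, the spindle checkpoint gene BUBR1 by -0.76 ± 0.12 and PLE, needed for cytokinesis, by -0.62 ± 0.10, each without overlap. The fallen genes named here lost their calls in the same 3 fits and, except for BLH4, also without 35S:NGA 2, and EPF2 lost its call without 35S:NGA 3 too.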
